A study of Danio rerio with 4 samples.

Results

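The genes described here are 50 zebrafish genes, chosen by name, whose products copy DNA or carry cells through mitosis. Matching by symbol, without regard to case, found 44 of them on 46 of the 32379 gene rows of the deposited count files, since the names mcm6 and rrm2 each label 2 rows. For birc5a the symbol table gives the name BIRC5, without the paralog letter. A filter on low counts kept 45 of the 46 rows among 19917 genes tested. The row it removed was the second mcm6 row (ENSDARG00000033231), at 0.0668 to 0.390 CPM. CPM is the reads of a gene scaled to the library's total of reads in tested genes, with TMM factors applied to those totals. The genes mcm2, mcm7, ccnd1, e2f1, ccne2 and cdc20 were not analysed here. The rows were grouped by role into 23 replication genes, 22 mitosis genes and cdk2, the only gene of G1/S control that was matched.

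RNA came from whole embryos of the AB strain at 48 hours post fertilization, which had received 3 ng of an oligomer at the 1-cell stage, either a control morpholino or a morpholino against srsf5a, a gene for a serine/arginine-rich splicing factor. A morpholino is an antisense oligomer that binds RNA and blocks its splicing or translation. Both groups therefore carried an injected oligomer, both were sorted by a rhodamine dextran tracer, and uninjected embryos were not analysed here. Embryos given the srsf5a morpholino are called morphants. Each group had 2 libraries, called biological replicates in the labels, and 80 embryos were used for a condition. The labels do not say how those embryos were divided between the libraries, so p-values here reflect a spread between libraries that may be technical. The injected oligomers are printed because they define the groups, each with a length of 25 bases, 5′ to 3′.
control morpholino: cctcttacctcagttacaatttata
srsf5a morpholino: ggattcagtctcacctctcactgca

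Before S phase, the factors cdc6 and cdt1 load the ring of MCM proteins onto replication origins. As S phase begins, GINS joins the ring as part of the active helicase. The sliding clamp PCNA then holds the polymerases on DNA while other enzymes join the new fragments and keep the nucleotide pool filled. In mitosis the kinase cdk1 with its cyclins, the Aurora and Polo kinases, spindle motors, condensins and topoisomerase II separate the copied chromosomes. Transcripts of the replication genes peak near the start of S phase and those of the mitosis genes in G2 and M, and at this stage of the fish dividing cells are found in the brain, the retina and other growing organs.

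Reads assigned to genes numbered 15139525 to 36240893 in a library. The targeted gene srsf5a stood at 335 and 286 CPM in control libraries, against 335 and 368 CPM in morphants, so its total count does not check the labels, and a block of splicing need not lower that count. The quasi-likelihood test of edgeR called 395 of the 19917 tested genes, or 1.98%, at a Benjamini-Hochberg threshold of 0.05. Leaving out a control lowered that count, to 175 for replicate 1 and 33 for replicate 2. Leaving out a morphant library raised it, to 1156 for replicate 1 and 1410 for replicate 2.

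Replication and mitosis genes had shifts of opposite sign in embryos given the srsf5a morpholino, both small. The median log2 fold change, srsf5a morpholino over control, was 0.16 for 22 tested replication genes, or 11.8% higher, and -0.16 for 22 mitosis genes, or 10.7% lower. Over all tested genes the median was 0.00. Of the replication genes 17 lay above 0 and 5 below, and of the mitosis genes 3 lay above and 19 below, where 49.9% of all tested genes lay below 0. No single member passed the test over all genes. In edgeR 0 of 45 members were called higher and 0 lower (adjusted p between 0.107 and 0.995), where 1.22% of all tested genes were called higher and 0.768% lower. At an unadjusted p of 0.05 the count was 9 of 45, against 20.6% of all tested genes: 4 replication genes were on the higher side, where 10.5% of all genes were, and 5 mitosis genes on the lower side, where 10.1% were. Over both directions the members' share was thus at the background. In DESeq2 the count of called members was 1, the kinetochore motor gene cenpe, where 5.49% of all genes with an adjusted p were called. A change in the share of dividing cells and a change in RNA per cell cannot be told apart in RNA from whole embryos.

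The position of the 4 libraries differed between the lists. In 9 of the 22 replication genes both morphant libraries lay above both controls, against 26.1% of all tested genes. In 0 of the replication genes did both lie below. In 11 of the 22 mitosis genes both lay below both controls, against 26.3% of all tested genes, and in 0 did both lie above. The other 13 replication genes and 11 mitosis genes overlapped between the groups. Over all 45 members 25 overlapped, while the libraries of 52.4% of all tested genes were separated by group, so the members were separated by group no more often than genes in general, and within each list the separated genes lay on 1 side.

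The mean over a list of log2 CPM, taken relative to the mean of the controls, shows where the libraries stood. For replication genes it was 0.070 in control replicate 1, -0.070 in control replicate 2, 0.049 in morphant replicate 1 and 0.24 in morphant replicate 2. One row, mcm3, carried much of the first 3 values: without it, an alternative chosen after seeing the data, the means were 0.029, -0.029, 0.0075 and 0.27 in the same order. The replication shift thus came mostly from morphant replicate 2, in which 20 of 22 genes lay above the control mean, against 12 in replicate 1, where 50.2% and 50.8% of all tested genes did so. For mitosis genes the values were 0.033 and -0.033 in the controls, then -0.31 and -0.049. The mitosis shift came mostly from morphant replicate 1, in which all 22 mitosis genes lay below the control mean, against 13 in replicate 2, where 49.2% and 49.8% of all tested genes did.

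In morphants the gap between the lists was steadier than either list, whose SDs between replicates were 0.13 for replication and 0.18 for mitosis. In controls those SDs were 0.099 and 0.046, so there the gap was no steadier than mitosis. Replication minus mitosis, on the same relative log2 scale, was 0.038 and -0.038 in control libraries, against 0.36 and 0.29 in morphants. The groups did not overlap, and the difference of 0.32 between their means exceeded the SD between replicates of 0.053 in controls and 0.049 in morphants (n = 2 each). Morphant replicate 2 stood above replicate 1 in both lists, by a median of 0.26 in each, and that offset cancels in the gap. Without mcm3 the gap was -0.0043 and 0.0043 in control libraries, then 0.32 and 0.32. No test was run on it: the members were chosen with results known, and 2 libraries against 2 cannot give a two-sided exact permutation p below 0.333. In fitted values the medians of the lists differed by 0.32, and by 0.34 to 0.39 when each library in turn was left out. The lists themselves depended on the libraries. Without morphant replicate 1 the medians were 0.31 for replication and -0.077 for mitosis, and without morphant replicate 2 they were 0.038 and -0.30. Those fits hold 1 morphant library, assumed to vary like the controls, and called more genes overall as well, so only estimates of the members are given.

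**Figure D1:**
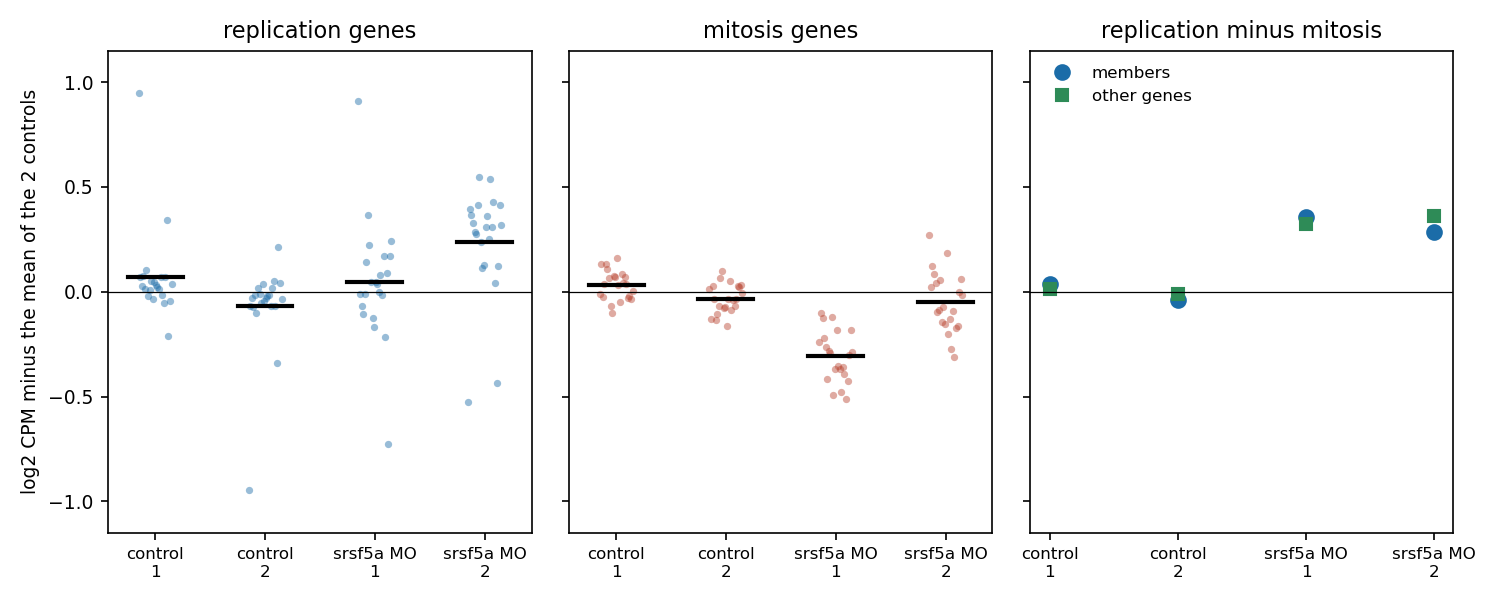
Log2 CPM relative to the mean of both controls (y axis) in each library (x axis, MO for morpholino). Coloured points are single genes and black bars the mean of the list. The right panel gives replication minus mitosis for the members (circles) and for a further set of replication and mitosis genes (squares). In the controls both average 0 by construction, at 0.038 and -0.038 for the members and 0.012 and -0.012 for the further set. In morphants the members lie at 0.36 and 0.29 and the further set at 0.32 and 0.36.

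Licensing and helicase genes all had estimates above 0, from 0.11 to 0.40, with a median of 0.19 over 8 rows. The largest values belonged to GINS subunits, which are part of the active helicase. gins1 (ENSDARG00000007624) stood at 6.55 and 6.73 CPM in control libraries, against 8.59 and 8.88 CPM in morphants. Its groups did not overlap, and the log2 fold change was 0.39 ± 0.15 (SE), with a 95% interval of 0.04 to 0.74 and an adjusted p of 0.201 in edgeR. gins2 (ENSDARG00000002304) had 6.95 and 6.84 CPM, then 8.07 and 10.1 CPM. It too was separated by group, at 0.40 ± 0.17 (adjusted p = 0.245 in edgeR). Both genes were among the least counted of the members, with 98 and 104 reads in control replicate 1.

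The MCM genes for the helicase ring rested on morphant replicate 2. mcm5 (ENSDARG00000019507) had 137 and 132 CPM in control libraries, against 128 and 173 CPM in morphants, so that replicate 1 lay below both controls and replicate 2 above both (0.17 ± 0.14). The counted mcm6 row (ENSDARG00000057683, 0.13 ± 0.15) had the same order of libraries, and in mcm4 (0.21 ± 0.14) replicate 1 lay between the controls. The estimate for mcm4 was 0.40 without morphant replicate 1 and -0.01 without morphant replicate 2. mcm3 behaved differently: it stood at 57.7 and 15.5 CPM in control libraries, against 56.2 and 20.7 CPM in morphants. Replicate 1 of each group was high and replicate 2 low, a spread far wider than the group difference of 0.11 ± 0.62. The origin-loading genes cdc6 (0.15 ± 0.13) and cdt1 (0.21 ± 0.13) had estimates close to those of the MCM genes, and cdt1 was higher in both morphant libraries than in either control.

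Among 9 polymerase and fork genes the median was 0.16, and 7 lay above 0. pcna (ENSDARG00000054155), which encodes the sliding clamp, had 412 and 382 CPM in control libraries, against 410 and 468 CPM in morphants. The groups overlapped, since control replicate 1 and morphant replicate 1 were nearly equal, and the log2 fold change was 0.14 ± 0.11 (adjusted p = 0.493 in edgeR). fen1, the flap endonuclease that trims Okazaki fragments, stood at 49.2 and 52.9 CPM, then at 57.4 and 68.7 CPM. Here both morphant libraries were higher than both controls (0.30 ± 0.12, adjusted p = 0.205 in edgeR), with estimates of 0.43 without morphant replicate 1 and 0.16 without morphant replicate 2. The clamp loader gene rfc4 (0.33 ± 0.17) and the single-strand binding genes rpa1 (0.18 ± 0.11) and rpa2 (0.21 ± 0.13) were separated by group as well. rfc3 (0.13 ± 0.12), another clamp loader gene, and lig1 (0.16 ± 0.12), the ligase that joins Okazaki fragments, overlapped. The large polymerase subunits pole (-0.00 ± 0.11) and pola1 (-0.01 ± 0.12) were near 0, with 95% intervals of -0.26 to 0.26 and -0.30 to 0.27.

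The nucleotide supply genes split. tyms, which makes thymidylate, had 29.1 and 30.8 CPM in control libraries, against 33.7 and 40.0 CPM in morphants, with no overlap (0.30 ± 0.12, adjusted p = 0.222 in edgeR). dhfr, which regenerates the folate used by tyms, had 16.6 and 15.8 CPM, then 19.2 and 20.3 CPM, also with no overlap (0.28 ± 0.12). The ribonucleotide reductase genes, whose enzyme makes deoxyribonucleotides, lay on the other side of 0. The large subunit gene rrm1 had a log2 fold change of -0.08 ± 0.12, and the rows named rrm2, for the small subunit, had -0.18 ± 0.24 (ENSDARG00000020711) and -0.26 ± 0.26 (ENSDARG00000078069). Of the latter, the first had 82.0 and 51.0 CPM in control libraries, against 68.8 and 47.9 CPM in morphants, and the second had 83.2 and 112 CPM, then 58.3 and 105 CPM. In both groups the first row was higher in replicate 1 and the second in replicate 2. Reads that could be shared by similar copies were set aside in the counting, so the separate values of these rows are uncertain. The estimate of the second row was -0.75 without morphant replicate 2 and 0.10 without morphant replicate 1. The kinase gene cdk2, which acts at S phase entry, stood at 27.9 and 29.2 CPM in control libraries, against 28.4 and 33.9 CPM in morphants, overlapping (0.12 ± 0.12).

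**Figure D2:**
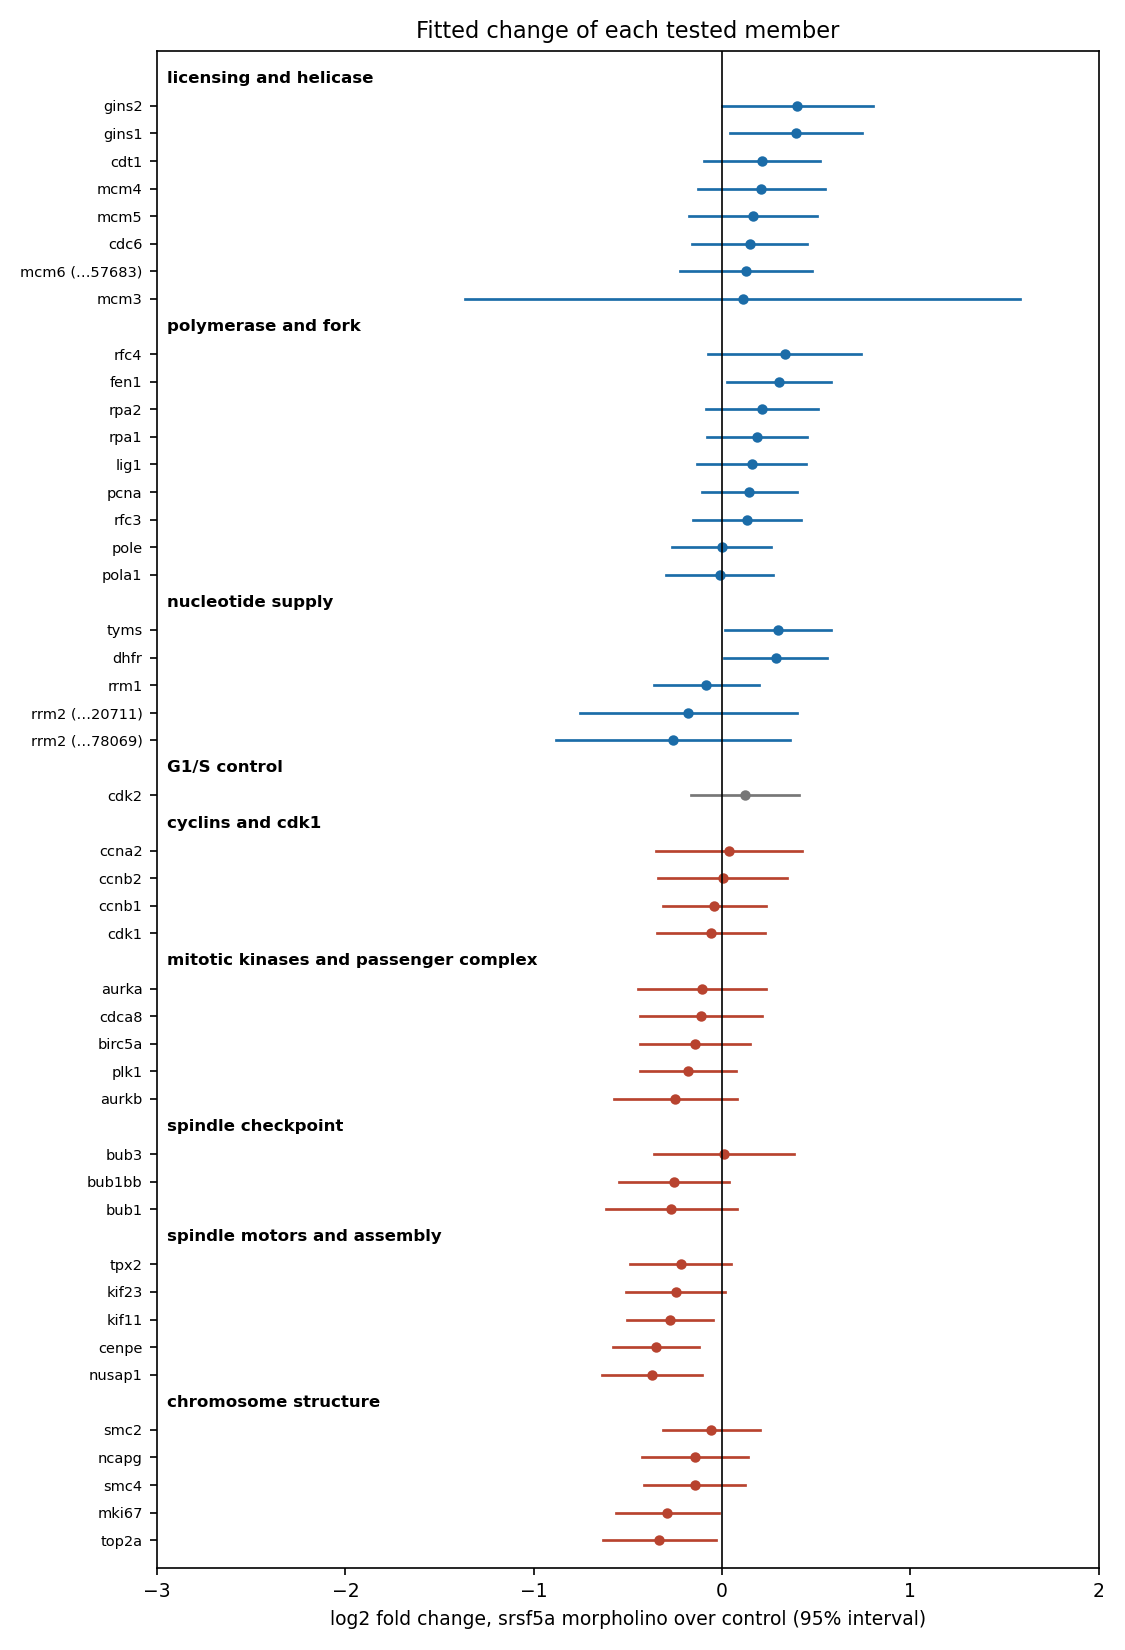
Log2 fold change, srsf5a morpholino over control (x axis), for each of 45 tested rows by role, with bars for the 95% interval from edgeR (blue for replication, grey for G1/S control, red for mitosis). Most replication estimates lie right of 0 and most mitosis estimates left of it, cyclin and cdk1 genes sit close to 0, and mcm3 has the widest interval.

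Of the mitosis roles, cyclins and cdk1 had the median nearest 0, at -0.02 over 4 genes. All 4 lay below the control mean in morphant replicate 1 and above it in replicate 2. Their mean relative log2 CPM was -0.17 and 0.13 there, so the estimates average libraries on opposite sides. ccnb1 (ENSDARG00000051923), a cyclin that activates cdk1, had 119 and 99.1 CPM in control libraries, against 101 and 110 CPM in morphants. The morphant libraries lay between the controls (-0.04 ± 0.12, adjusted p = 0.882 in edgeR). cdk1 (ENSDARG00000087554) itself had 75.6 and 72.0 CPM, then 63.2 and 78.3 CPM, so that the controls lay between the morphant libraries (-0.06 ± 0.12, adjusted p = 0.83 in edgeR). The cyclin genes ccna2 (0.04 ± 0.16) and ccnb2 (0.00 ± 0.15) gave estimates as small. The 95% intervals of all 4 genes lay within 1.5-fold either way.

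The Aurora and Polo kinases and the chromosomal passenger complex had 5 of 5 estimates below 0 (median -0.14). aurkb, the kinase of the passenger complex, stood at 52.8 and 45.5 CPM in control libraries, against 36.7 and 45.9 CPM in morphants. Replicate 2 lay just above control replicate 2, so the groups overlapped (-0.25 ± 0.14, adjusted p = 0.367 in edgeR). Its partners cdca8 (-0.11 ± 0.14) and birc5a (-0.14 ± 0.12), the centrosomal kinase gene aurka (-0.11 ± 0.14) and plk1, the Polo kinase (-0.18 ± 0.11), had smaller estimates, with plk1 and birc5a lower in both morphant libraries than in either control. Of the spindle checkpoint genes, which delay anaphase until chromosomes are attached, bub1 (-0.27 ± 0.15) and bub1bb (-0.26 ± 0.12) lay below 0 and bub3 at 0.01 ± 0.16. The estimate of bub1 (adjusted p = 0.359 in edgeR) was -0.07 without morphant replicate 1 and -0.50 without morphant replicate 2.

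Spindle motor and assembly genes had the lowest median of the roles. In all 5 both morphant libraries lay below both controls, where 26.3% of all tested genes did so. The median was -0.28, or 17.4% lower. cenpe (ENSDARG00000063385), a motor that holds chromosomes to spindle microtubules, had 268 and 243 CPM in control libraries, against 194 and 205 CPM in morphants. The gap between the groups was wider than the spread within either, the log2 fold change was -0.35 ± 0.10 with a 95% interval of -0.58 to -0.12, and its adjusted p of 0.107 in edgeR was the lowest of any member. In DESeq2 the adjusted p of cenpe was 0.0488, so whether it passed depended on the test used. nusap1, a microtubule-bundling protein of the spindle, had 112 and 99.2 CPM, then 75.6 and 87.2 CPM, again with no overlap (-0.37 ± 0.11, adjusted p = 0.13 in edgeR), with estimates of -0.27 and -0.48 without morphant replicates 1 and 2. kif11, the motor that pushes spindle poles apart, had 223 and 213 CPM, then 171 and 189 CPM (-0.28 ± 0.10, adjusted p = 0.178 in edgeR). The spindle assembly factor gene tpx2 (-0.22 ± 0.11) and the cytokinesis motor gene kif23 (-0.25 ± 0.11) followed.

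The chromosome structure genes divided into a pair with larger estimates and 3 condensin genes with smaller ones. top2a (ENSDARG00000024488), the topoisomerase that untangles sister chromatids, had 228 and 217 CPM in control libraries, against 156 and 197 CPM in morphants. mki67 (ENSDARG00000091150), which coats mitotic chromosomes and is widely used as a proliferation marker, had 710 and 738 CPM, then 538 and 646 CPM. Both genes were lower in each morphant library than in either control, and in both replicate 1 was the lower of the pair. The log2 fold changes were -0.33 ± 0.13 for top2a (adjusted p = 0.201 in edgeR) and -0.29 ± 0.12 for mki67 (adjusted p = 0.219 in edgeR). Without morphant replicate 1 the estimates were -0.17 and -0.16, and without morphant replicate 2 they were -0.51 and -0.43. The condensin genes, whose complex compacts chromosomes, had -0.14 ± 0.12 (ncapg), -0.06 ± 0.11 (smc2) and -0.15 ± 0.11 (smc4), of which smc4 alone was separated by group.

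**Figure D3:**
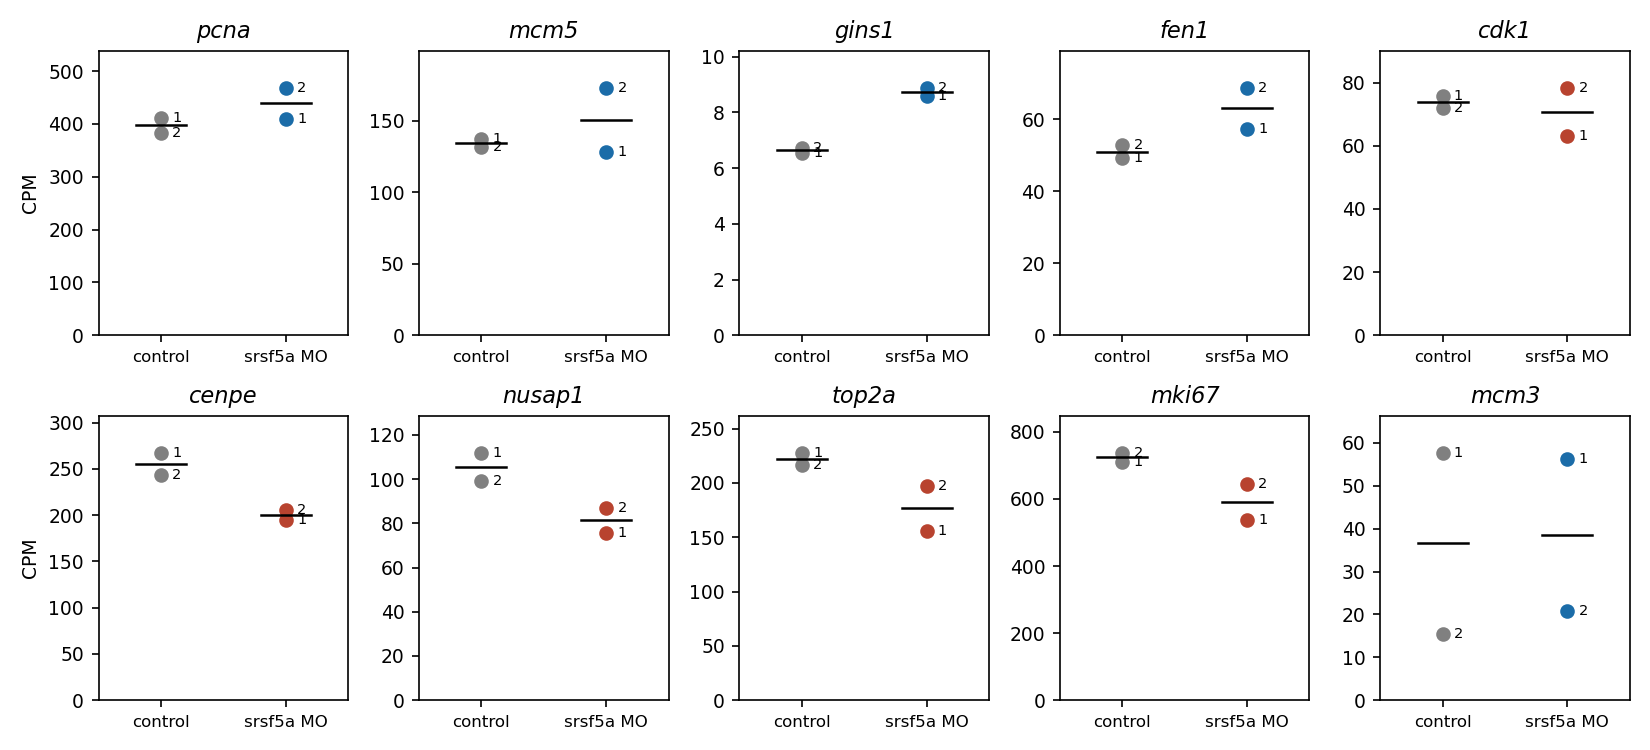
CPM (y axes, from 0) of 10 members in control and srsf5a-morpholino (MO) libraries, with replicate numbers beside the points and bars at group means. gins1 and fen1 lie higher and cenpe, nusap1, top2a and mki67 lower in morphants without overlap, pcna, mcm5 and cdk1 overlap, and mcm3 separates by replicate number.

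The intervals of most members were narrow. For 36 of the 45 tested members the whole 95% interval lay within 1.5-fold of no change, against 44.4% of all tested genes. For 44 members it lay within 2-fold, mcm3 being the exception. The median SE was 0.12 for the members and 0.16 for all tested genes. The SD of log2 fold changes was 0.17 for replication and 0.12 for mitosis, against 0.43 over all tested genes. The lowest CPM of a tested member in any library was 6.55. All tested genes include lower rows, such as a blood marker at 0.382 CPM in morphant replicate 2. Genes were not matched for level, so these intervals and SDs are not read as a trait of the members.

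Genes of the same pathways outside the 50 had similar medians. Of 36 further replication genes sought 27 were tested, with a median of 0.18, 23 above 0 and 4 below. Of 40 further mitosis genes 31 were tested, with a median of -0.16, 4 above 0 and 27 below. No gene of either set passed in edgeR. At an unadjusted p of 0.05, 5 replication genes were higher and 1 lower, and 7 mitosis genes were lower and 0 higher, where 20.6% of all tested genes passed in either direction, while DESeq2 called 1 mitosis gene, cenpf (-0.41). The lowest p among the replication genes belonged to the origin recognition complex gene orc3, at 23.4 and 23.4 CPM in control libraries, against 31.6 and 31.3 CPM in morphants (0.43 ± 0.10, adjusted p = 0.0827 in edgeR). Its fellow subunit genes orc1 (0.39 ± 0.11) and orc5 (0.46 ± 0.15) were also higher in both libraries, whereas orc6, another subunit gene, overlapped (-0.05 ± 0.14). The clamp loader gene rfc5 was lower in both (-0.32 ± 0.11). The cyclin gene ccnb3 led the mitosis genes, at 34.9 and 35.5 CPM, then 26.4 and 27.2 CPM (-0.40 ± 0.10, adjusted p = 0.092 in edgeR), followed by the spindle protein gene hmmr (-0.35 ± 0.09), the kinetochore gene cenpf (-0.41 ± 0.11) and the motor gene kif18a (-0.35 ± 0.12).

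In the same 4 libraries the gap between these further lists was 0.012 and -0.012 in control libraries, against 0.32 and 0.36 in morphants. They come from the libraries that gave the members' gap and are no independent support. Their own medians moved with the libraries as those of the members did, to 0.31 and -0.074 without morphant replicate 1 and to 0.039 and -0.28 without morphant replicate 2.

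**Figure D4:**
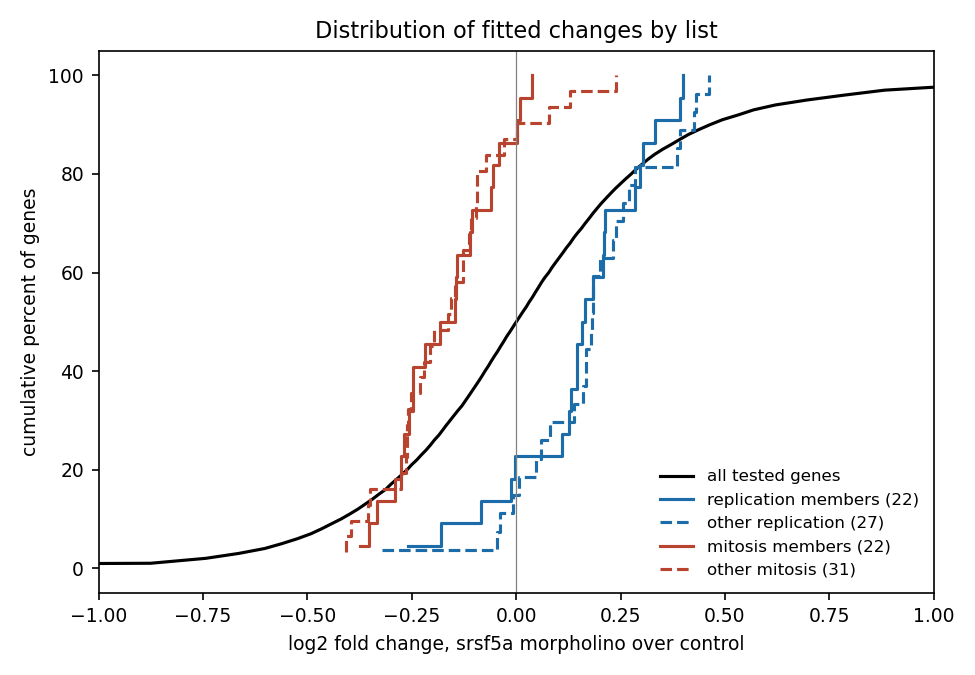
Cumulative percent of genes (y axis) at or below each log2 fold change, srsf5a morpholino over control (x axis, -1 to 1 shown), for replication and mitosis members (solid), further genes of the same pathways (dashed) and all tested genes (black), with the number of genes in brackets. The curves for replication lie right of the black curve at its middle and those for mitosis left of it, with medians of 0.16 and -0.16 for the members.

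Among 17 tested rows of genes that brake the cell cycle, 2 were called higher and 0 lower in edgeR. Their median was -0.03, with 8 estimates above 0 and 9 below. Of all tested genes 1.22% were called higher and 0.768% lower. cdkn1a, the p53-induced inhibitor of cyclin-dependent kinases, had 3.34 and 2.94 CPM in control libraries, against 14.1 and 15.8 CPM in morphants (2.27 ± 0.16, adjusted p = 0.00683 in edgeR). Of the other tested inhibitor rows, CDKN1B (ENSDARG00000029018) had an estimate of 0.11, cdkn1ca -0.49, cdkn2c -0.55 and cdkn2d -0.55, none of them called. The p53 target ccng1 had 846 and 740 CPM in control libraries, against 1405 and 1236 CPM in morphants. Its estimate of 0.74 ± 0.12 passed (adjusted p = 0.0361 in edgeR), and it was 0.83 and 0.64 without control replicates 1 and 2. Not called were ccng2, a cyclin G relative, at -0.51 ± 0.10 (adjusted p = 0.0519 in edgeR) and the stress gene GADD45A at 0.87 ± 0.19 (adjusted p = 0.07 in edgeR).

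Markers of cell types that hold dividing cells, or their daughters, also had estimates mostly below 0. Neural and retinal progenitor markers had 18 of 20 estimates below 0 (median -0.21). Their summed level was 2493 and 2489 CPM in the controls against 1691 and 2273 CPM in morphant replicates 1 and 2. In that sum the row FABP7 (ENSDARG00000007697) had 432 and 453 CPM, then 295 and 279 CPM. The mean over the progenitor marker rows of relative log2 CPM was -0.46 in morphant replicate 1 and -0.045 in replicate 2. As for the mitosis genes, morphant replicate 1 was the lowest library. Neuron markers had 15 of 17 below 0 (median -0.29), at 2738 and 2612 CPM, then 2016 and 2058 CPM. Much of that sum came from tubb5 (981 and 883 CPM, then 602 and 661 CPM) and elavl3 (642 and 597 CPM, then 403 and 516 CPM). The mean over the neuron marker rows of relative log2 CPM was -0.23 in morphant replicate 1 and -0.37 in replicate 2. For blood progenitor and red cell markers 9 of 10 lay below 0 (median -0.23), at 2463 and 1994 CPM, then 1563 and 1656 CPM. Most of that sum came from 2 rows, the globin gene hbae3 and a SLC4A1 row, and the other 8 rows summed to 271 and 235 CPM, then 228 and 220 CPM. One row of each list passed in edgeR, all 3 lower, where 0.768% of all tested genes were called lower. They included FABP7 (ENSDARG00000007697), a lipid-binding protein of radial glia, at -0.62, and gad2, which makes the transmitter GABA, at -0.71. The last was SLC4A1 (ENSDARG00000012881), the red cell anion exchanger, at -0.61. The other rows of these names, FABP7 (ENSDARG00000034650) at 0.09 and SLC4A1 (ENSDARG00000024560) at -0.02, overlapped between the groups. No tested marker row was at 0 in any library. The part of these cell types in the values of the members was not tested.

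In the authors' deposited table cenpe was the one member with an adjusted p under 0.05, at a log2 fold change of -0.33 and an adjusted p of 0.0423, where that table calls 6.12% of its genes, 3.14% higher and 2.99% lower. The authors' deposited table gave medians of 0.14 for replication and -0.15 for mitosis.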

How the data were processed

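The authors deposited whole-number read counts for each of 4 libraries. Zv9 is the build named in the submitters' processing notes, which also list TopHat, HTSeq, Picard and DESeq2. Versions, annotation release and strand setting were not given there. A further deposited table holds, for each gene, p-values and a Wald score, log2 fold changes and a signal column of mean normalized counts. It was used only where named.

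Summary totals were left out of library sizes. Reads in genes made up 53.0% to 57.1% of the listed reads, those with several alignments 29.0% to 34.2%, those in no gene 11.9% to 13.5% and ambiguous ones 0.443% to 0.531%. A count of 0 allows up to 3 counts, or 0.0828 to 0.198 CPM on unscaled totals of reads in genes, which covers counting error only. Symbols came from a supplied table naming 20603 of the identifiers. No coordinates are given, because no annotation of that build was used here.

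The test was that of edgeR 4.0.16 (R 4.3.3): filterByExpr (minimum count 10, total 15), TMM, and the quasi-likelihood test with morpholino as the only term, Benjamini-Hochberg adjusted over all tested genes. CPM values use TMM-scaled totals, and levels per library are log2 CPM with a prior count of 2. Standard errors and 95% intervals come from the same fit. The procedure was run on simulated data for its calls and median changes. That run did not check the intervals and held no effect shared by same-numbered libraries. Replicate libraries were not copies of each other: chi-square over its degrees of freedom was 8.72 for the controls and 13.5 for the morphants. Alternatives were DESeq2 1.42.0, RLE factors, other filters, a replicate block, leaving out each library, cdk2 counted with replication and a prior count of 0.5.

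The members and lists were chosen with earlier results of these data known. Every matched member could be named. Values per library were to be given for pcna, mcm5, ccnb1, cdk1, aurkb, mki67, top2a and 3 genes not analysed here, and for the members with the lowest p or the largest estimates. Values of mcm3, fen1, tyms, dhfr, cdk2 and rrm2 were added after they were seen. Other lists were named by their calls and up to 4 lowest p. Named outside that rule were orc6, elavl3, CDKN1B, cdkn1ca, cdkn2c and cdkn2d. A planned search of promoters for motifs was not run.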

Additional observations from a re-analysis of the deposited data

How the results depend on the processing

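In the comparison of morphants with controls, the number of genes called was 956 with DESeq2 and 1582 with the replicate block, against 395, and 33 to 1410 when 1 library was left out. Members called were 0 under edgeR with RLE factors, with either other filter and with the replicate block, and 1 under DESeq2 (cenpe, -0.36). A fit without 1 library takes its spread from the other group alone, so calls of the members are not given for it. Counts of calls outside the 50 in such fits have the same limit and are not read as results. Over all tested genes those fits called 33 to 1410. The mean replication level, morphants minus controls, was 0.14 both with and without mcm3. The difference of medians, replication minus mitosis, was 0.32 to 0.33 under the other settings, 0.32 with cdk2 counted among the replication genes, and 0.34 to 0.39 when 1 library was left out. Replication genes called outside the 50 were 0 to 2 when 1 library was left out, with medians of 0.039 to 0.31; mitosis genes were 0 to 4, with medians of -0.28 to -0.074; brake genes were 1 to 6, with medians of -0.023 to 0.15. DESeq2 called 1 of those mitosis genes, where 5.49% of all genes with an adjusted p were called. The block called 1 of 27 replication, 1 of 31 mitosis and 5 of 17 brake genes, where it called 1582 of all 19917 tested genes. The replicate numbers are a label only: the labels tie them to no shared litter or day. Deviations of same-numbered libraries had a correlation of 0.456 across genes, from 2 pairs. The cause of these differences was not tested. A pair of libraries per group limits the precision of every value, and the depth of 15139525 counts in control replicate 1 limits the members with few reads, such as gins1.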
